A study of Homo sapiens with 28 samples.

Results

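The regions described here are the first and last megabase of human chromosomes 1 to 22, the subtelomeric ends of the chromosome arms in build hg38. A peak belonged to them when its centre lay within 1 Mb of either end of the chromosome. Of 44 autosomal arms, 39 had sequence there, whereas the outer megabase of the short arms of chromosomes 13, 14, 15, 21 and 22 is an assembly gap. The 39 terminal megabases held 37.3 Mb of ungapped sequence, between 0.84 and 0.99 Mb per arm, which is 1.35% of the 2756 Mb of ungapped autosomal sequence. Over 10 peak lists they contained 54285 of 4927343 autosomal peaks. The next 1 to 5 Mb inward on the same 39 arms, with 155.7 Mb of ungapped sequence, served as the reference, and all densities are peaks per Mb of ungapped sequence.

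The peaks came from chromatin immunoprecipitation sequencing of U2OS, a human osteosarcoma cell line. Histone H3 dimethylated at lysine 36 (H3K36me2) was mapped in wild-type cells without UV and 3 h after 20 J/m2 of UV-C, with 2 replicates in each condition. The Flag-tagged carboxy-terminal domain (CTD) of the methyltransferase ASH1L was mapped with an anti-FLAG antibody in ASH1L knockout cells transfected with the CTD vector, without UV and 3 h after the same dose, with 3 replicates in each condition. The labels call these biological replicates. The CTD was therefore supplied by transfection in cells that lack the endogenous protein, all material was 1 transformed cell line, and genotype, antibody and control differed together between the H3K36me2 and CTD experiments and cannot be told apart.

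Each of the 10 lists was exactly 500000 peaks long and sorted by p-value, so that a density is a share of a fixed number of peaks and not an absolute amount of mark or protein. The lowest −log10 p in a list lay between 1.22 and 1.42, and the lists carry no read depth. Between 204043 and 224811 peaks of each H3K36me2 list reached a −log10 p of 2, compared to 29323 to 42078 peaks of each CTD list.

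Subtelomeres join the telomeric repeats to the unique part of a chromosome arm. They are built in part from segments that are duplicated between chromosome ends, and reads from such segments are hard to place. U2OS cells lack telomerase activity and keep their telomeres by the alternative, recombination-based pathway. H3K36me2 is spread over gene bodies and intergenic chromatin by methyltransferases of the NSD family and by ASH1L, whose carboxy-terminal part holds the catalytic SET domain and the bromodomain, PHD finger and BAH domain that contact chromatin.

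The sequences below were read from the hg38 reference, plus strand, 5′ to 3′, with every CG dinucleotide in capitals, and each is the middle 200 bases, or the whole where shorter, of a stretch of terminal chromatin that a result rests on. The first set shows the 3 stretches that were covered by a peak in all 4 H3K36me2 lists with the highest fold enrichment over input, ranked by the lowest list.
5q, chr5:180963483-180963682, no gene: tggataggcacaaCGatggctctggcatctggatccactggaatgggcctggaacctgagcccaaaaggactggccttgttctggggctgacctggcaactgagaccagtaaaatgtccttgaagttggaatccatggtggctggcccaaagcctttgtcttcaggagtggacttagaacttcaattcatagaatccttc
18p, chr18:949720-949919, no gene: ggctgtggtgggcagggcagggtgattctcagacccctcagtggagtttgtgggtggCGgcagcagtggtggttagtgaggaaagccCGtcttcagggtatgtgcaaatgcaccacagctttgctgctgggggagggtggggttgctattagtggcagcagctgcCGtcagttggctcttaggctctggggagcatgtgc
21q, chr21:46040620-46040819, no gene within these bases: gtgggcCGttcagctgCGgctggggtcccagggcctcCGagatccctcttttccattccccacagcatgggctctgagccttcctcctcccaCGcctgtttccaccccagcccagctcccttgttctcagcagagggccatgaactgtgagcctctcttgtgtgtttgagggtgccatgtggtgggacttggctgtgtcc
The second set shows 1 of the 3 highest-ranked stretches under a peak in all 6 CTD lists.
7q, chr7:158595168-158595356, no gene: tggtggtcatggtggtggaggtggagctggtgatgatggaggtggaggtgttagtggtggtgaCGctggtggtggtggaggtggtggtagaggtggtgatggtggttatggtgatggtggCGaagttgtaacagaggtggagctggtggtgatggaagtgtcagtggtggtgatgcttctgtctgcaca
The last sequence is that of 1 of the 3 highest-ranked stretches with CTD peaks in all 3 h lists and in none without UV.
18q, chr18:79980789-79980904, intron of TXNL4A, CTD at 3 h only: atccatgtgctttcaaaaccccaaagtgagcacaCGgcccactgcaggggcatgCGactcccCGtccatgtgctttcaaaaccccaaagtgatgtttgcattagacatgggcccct

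The values behind these sequences were as follows. The 5q stretch, chr5:180963179-180963986, lies 574.7 kb from the chromosome end and 12.3 kb from BTNL8, a butyrophilin-like gene, and its peaks were enriched 3.31- and 3.09-fold without UV and 3.29- and 3.19-fold at 3 h. The 18p stretch, chr18:949032-950607, is 36.9 kb from ADCYAP1, which encodes the neuropeptide PACAP, and carried 3.44- and 4.0-fold enrichment without UV and 2.74- and 2.80-fold at 3 h. The 21q stretch, chr21:46039687-46041752, overlaps an exon of the long non-coding RNA ENSG00000224413 and holds 63 CG dinucleotides in 2066 bases. It was enriched 3.60- and 3.74-fold without UV and 2.69- and 2.82-fold at 3 h. At 18p and 21q both 3 h lists were below both lists without UV, whereas at 5q the conditions overlapped. These stretches were ranked by fold enrichment, so their levels are a description.

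The CTD stretches were less enriched. The 7q stretch, 7.35 kb from the phosphatase-like gene PTPRN2, carried 2.01-, 1.91- and 2.77-fold without UV and 2.57-, 2.48- and 2.07-fold at 3 h. Another stretch under a peak in all 6 lists, on 17q in an exon of TEX19 that includes untranslated sequence, reached 1.74- to 1.92-fold. In neither of these CTD stretches did the conditions separate.

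Among stretches with H3K36me2 peaks only without UV, 1 lay in an intron of KANK1 on 9p, with 2.29- and 2.32-fold, and another 2.45 kb from ANKLE2 on 12q, with 2.3- and 2.29-fold. Only at 3 h, a stretch 1.19 kb from OR4F6 on 15q was enriched 2.41- and 2.19-fold, and another 14.1 kb from B4GALNT4 on 11p 2.22- and 2.17-fold. The CTD peaks of the intron of TXNL4A, a spliceosome gene, were enriched 2.17-, 2.09- and 2.0-fold at 3 h, and those in KNDC1 on 10q and PALM on 19p 1.96- to 2.09-fold. Those of the PPP6R2 intron on 22q, found only without UV, were enriched 2.0-, 1.84- and 2.23-fold, and those near PRMT2 on 21q and in SYCE1 on 10q 1.87- to 2.09-fold.

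H3K36me2 peaks were sparser in the terminal megabase than further inward in every list. Without UV, replicate 1 had 3474 terminal peaks, or 93.2 per Mb, against 143.8 per Mb from 1 to 5 Mb. Replicate 2 had 4082 terminal peaks, or 109.5 per Mb, against 157.0 per Mb. At 3 h, replicate 1 had 2416 terminal peaks, or 64.8 per Mb, against 116.9 per Mb, and replicate 2 had 2526, or 67.8 per Mb, against 119.6 per Mb. Sequence beyond 5 Mb carried 181.0 to 184.0 peaks per Mb, so that density was stepwise lower towards the end in all 4 lists. The log2 ratio of terminal to inward density was −0.70 ± 0.158 (SD, n = 4 lists), and it was negative in 4 of 4 lists. A two-sided exact sign-flip permutation test gave p = 0.13, which is the smallest that 4 lists allow, and 0.208 after Benjamini-Hochberg adjustment over a family of 15 exact tests on these regions.

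CTD peaks were only slightly sparser at the ends. Without UV, the 3 replicates had 7749, 6861 and 6036 terminal peaks. Their terminal densities were 208, 184.1 and 162.0 per Mb against 231.5, 203.7 and 180.5 per Mb inward. At 3 h, the replicates had 6525, 6519 and 8097 terminal peaks, with 175.1, 174.9 and 217.3 per Mb against 197.5, 195.7 and 237.0 per Mb inward. Replicate 3 without UV was the lowest of the 6 lists and replicate 3 at 3 h the highest, and the conditions overlapped. The log2 ratio was −0.15 ± 0.0164 (SD, n = 6 lists), negative in 6 of 6 lists, with a two-sided exact sign-flip p of 0.031, the smallest that 6 lists allow, and 0.156 after adjustment over the 15 tests. Sequence beyond 5 Mb carried 174.7 to 178.6 CTD peaks per Mb. The terminal density was below that in 3 lists (log2 ratios of −0.14, −0.023 and −0.023) and above it in the other 3 (0.25, 0.054 and 0.31), with a mean of 0.071. It was −0.0017 when the outer 2 Mb were compared with 2 to 6 Mb.

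The ratio of terminal to inward density was higher for the CTD than for H3K36me2 by 0.55 on the log2 scale, and the 6 CTD lists did not overlap with the 4 H3K36me2 lists. The two-sided exact permutation test gave p = 0.00476, the smallest possible for 6 against 4 lists, and 0.0714 after adjustment over the 15 tests. Within the lists without UV the difference was 0.42 and within the 3 h lists 0.68, each with an exact permutation p of 0.1, the smallest for 3 against 2 lists. These within-condition tests were not part of the 15 and were not adjusted.

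**Figure D1:**
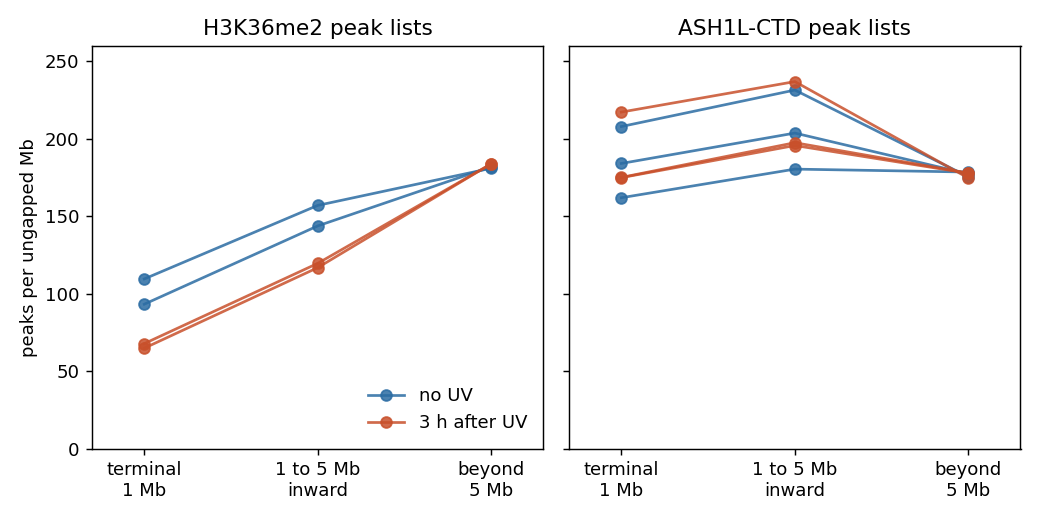
Peaks per Mb of ungapped sequence in the terminal 1 Mb, the next 1 to 5 Mb and the sequence beyond 5 Mb, with 1 line per peak list, for H3K36me2 (left) and the CTD (right). H3K36me2 was stepwise lower towards the end in all 4 lists, from 181.0 to 184.0 per Mb in the interior to 64.8 to 109.5 per Mb at the end, whereas the 6 CTD lists were highest from 1 to 5 Mb.

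The decline had a different reach for each protein. In bins of 100 kb, the outermost bin held 40.1 ± 4.23 H3K36me2 peaks per Mb without UV and 27.7 ± 1.41 at 3 h (SD, n = 2). From 0.3 to 0.4 Mb these densities were 114 and 69.3 per Mb. In bins of 1 Mb, H3K36me2 without UV rose from 101.4 per Mb in the first to 128.6, 136.8, 160.8 and 175.3 per Mb in the next 4, and the bins from 5 to 10 Mb varied between 160.8 and 191.3 per Mb. At 3 h it rose from 66.3 per Mb in the first to 150.9 in the fifth, and varied between 143.6 and 182.4 per Mb from 5 to 10 Mb. The CTD reached its plateau much closer to the end. Its outermost 100 kb held 82.6 ± 13.1 peaks per Mb without UV and 92.8 ± 12.8 at 3 h (SD, n = 3), and the bins from 0.3 to 0.4 Mb already held 207 per Mb in both conditions. The second megabase carried 213.5 and 218.6 CTD peaks per Mb, above every bin further in up to 10 Mb.

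Part of the outermost sequence was silent in all lists. Of the 10 kb windows in the outer 100 kb, 44.6% held no peak in any of the 10 lists, falling to 32.4% from 0.1 to 0.2 Mb, 10.9% from 0.2 to 0.3 Mb and 4.94% from 0.3 to 0.4 Mb. Reads that could not be placed uniquely had been removed before the peaks were called. Over windows with a peak in at least 1 list, the log2 ratio of terminal to inward density was −0.57 for H3K36me2 and −0.023 for the CTD, where the exact sign-flip p was no longer under 0.05 before adjustment.

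**Figure D2:**
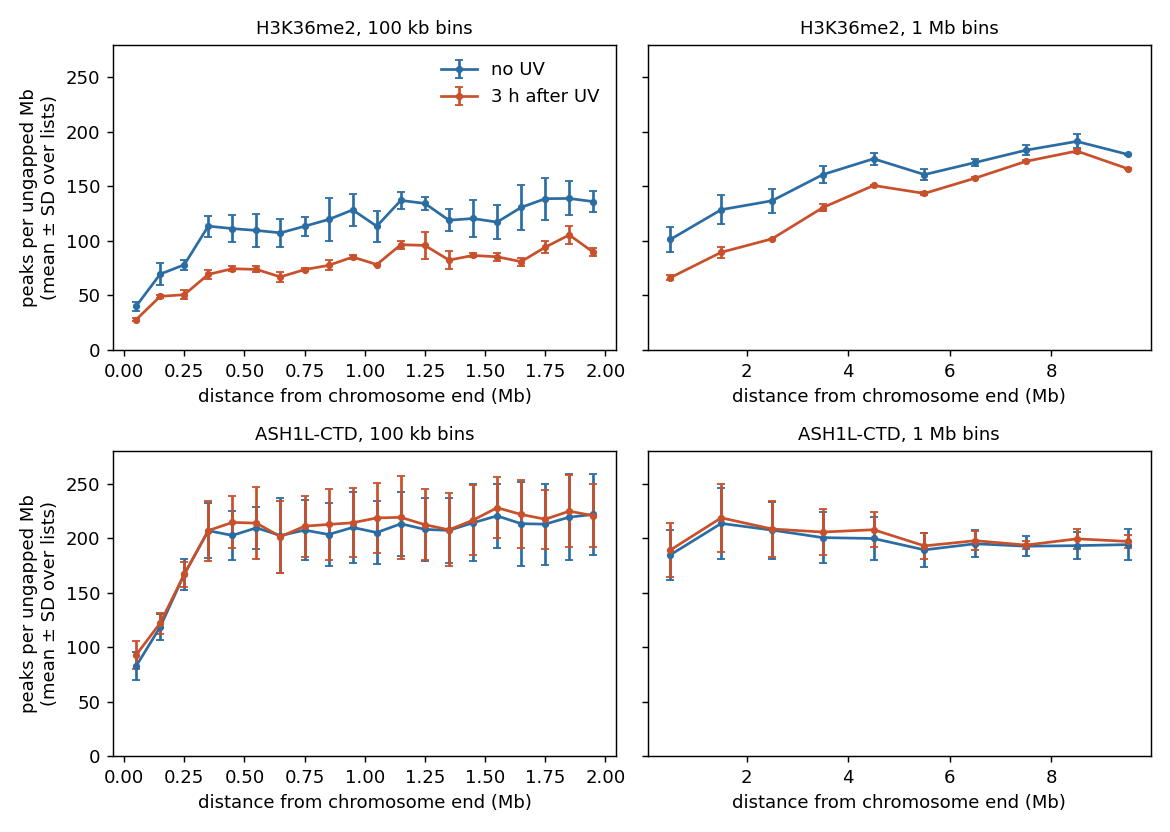
Peak density by distance from the chromosome end in 100 kb bins up to 2 Mb and in 1 Mb bins up to 10 Mb, for H3K36me2 and the CTD. Points are means and bars are SDs over the lists of a condition (2 for H3K36me2, 3 for the CTD). H3K36me2 climbed over several Mb, and its mean lay lower at 3 h in every bin shown, not only in the first megabase. The CTD levelled off at 207 per Mb by 0.3 to 0.4 Mb in both conditions.

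Terminal H3K36me2 peaks were also narrower and less often shared between replicates than inward peaks. Their median width was 601.5 and 613.5 bp without UV and 517 and 534 bp at 3 h, compared to 656, 664, 574 and 592 bp inward, a log2 difference of −0.13 in the mean with the same sign in 4 of 4 lists. Peaks covered 8.49% and 10.1% of the terminal sequence without UV and 4.96% and 5.16% at 3 h. The share of peaks scoring 2 or higher on the −log10 p scale was lower at the end by 3.65 percentage points in the mean, and the share that overlapped a peak of the other replicate was lower by 6.67 points. Each of these exact sign-flip tests gave p = 0.13, the floor for 4 lists. Any overlap counted as shared, so that share also depends on peak density and width, and their part was not tested. Terminal CTD peaks had widths of 426 to 581 bp and inward ones 423 to 579 bp, with no difference beyond the spread (exact sign-flip p = 0.156). They overlapped a peak of another replicate more often by 1.42 points, in 6 of 6 lists (exact sign-flip p = 0.031, 0.156 after adjustment). Few CTD peaks scored 3 or higher on the −log10 p scale anywhere, with 561 to 1057 in a whole list and 8 to 19 at the ends, compared to 41849 to 47783 and 141 to 288 in the H3K36me2 lists.

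The outermost peak of an arm lay a median of 76.0 to 88.5 kb from the end of the sequence in the H3K36me2 lists and 49.6 to 81.7 kb in the CTD lists. Between 3 and 6 arms had an H3K36me2 peak in the last 10 kb, and between 7 and 9 arms a CTD peak.

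Individual chromosome ends differed widely. Over the 39 arms, the median log2 ratio of terminal to inward H3K36me2 density was −0.79, with a range from −4.29 to 0.72. Terminal density was below inward density in every list on 35 arms and above it in every list on 3 arms. Among all 2737 windows of 1 Mb on the autosomes, each compared with its next 4 Mb inward, 42.8% were below in every list and 37.2% above. A limma fit over these windows, with Benjamini-Hochberg adjustment over all of them, called 34 terminal windows lower and 2 higher at an adjusted p of 0.05, beside 40.4% and 34.2% of all windows, of which 76.8% had an unadjusted p under 0.05. The share of terminal windows called lower was 87.2%, and the median log2 difference was −0.78 over the 39 terminal windows and −0.04 over all windows.

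The strongest depletion of H3K36me2 was on 14q. This end, which holds variable segments of the immunoglobulin heavy chain locus, carried 3.6, 3.6, 7.1 and 3.6 peaks per Mb in the 4 lists against a mean of 85.5 inward (limma log2 −3.99 ± 0.261 SE, adjusted p = 4.7e-05). On 8p the lists had 5.3, 6.4, 5.3 and 2.1 peaks per Mb against 49.1 inward, and on 10p 13.1, 15.2, 10.1 and 7.1 against 104. All 4 H3K36me2 lists were low at these 3 ends. The CTD was below its inward sequence there too, in all 6 lists at each end. Its means were 84.7 against 212.6 per Mb on 14q, 15.6 against 82.7 on 8p and 17.8 against 57.5 on 10p. At the other extreme, 17p had 126.9 and 135.8 peaks per Mb without UV and 100.2 in both 3 h lists, against 71.3 inward (log2 0.72 ± 0.067 SE, limma adjusted p = 0.00019). The 5q end had 140.4, 154.3, 111.7 and 133.0 against 104 inward (log2 0.41 ± 0.0879, adjusted p = 0.00645). The third arm above its inward sequence in every list was 7q, with 47.5 against 37.7 per Mb on average, and its window did not pass the limma test (adjusted p = 0.0564).

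For the CTD, 19 arms were below and 3 above their inward sequence in every list, beside 28.2% and 28.4% of all windows. The limma fit called 17 terminal windows lower and 3 higher, beside 31.5% and 31.2% of all windows, of which 66.5% had an unadjusted p under 0.05. On 7q the 6 lists ran from 187.9 to 280.8 peaks per Mb against a mean of 96.2 inward (log2 1.24 ± 0.0504 SE, limma adjusted p = 7.0e-08). On 13q they ran from 237.2 to 335.1 against 119, and on 21q from 188.9 to 259.6 against 181, where the log2 difference was only 0.21 and reversed to −0.0714 when only peaks scoring 2 or higher for −log10 p were kept. The lowest were 8p with 7.4 to 28.7 per Mb against 82.7, 1p with 33.3 to 45.2 against 218, and 1q with 36.4 to 54.5 against 154. Both experiments were low on these 3 ends. On 1q the 4 H3K36me2 lists had 75.8 to 91.9 peaks per Mb against a mean of 239.7 inward (log2 −1.48 ± 0.0657 SE, limma adjusted p = 1.1e-05). Over the 39 arms the Spearman correlation between the ratios of the experiments was 0.27, given as a description.

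Base composition moved with the densities of the CTD. The terminal megabases were 48.2% GC and the inward sequence 47.2%, and the Spearman correlation between GC content and terminal CTD density was 0.72 over the 39 arms. For H3K36me2 it was −0.15 over the 4 lists together and 0.039 over those without UV. Without UV the median terminal density was 121.0 per Mb in the 2 windows under 40% GC and 103.2 in the 15 of 50% GC or more. At 3 h these medians were 131.1 and 42.9 per Mb. In 10 kb windows of 54% GC or more, terminal CTD density without UV was 256.5 per Mb beside 256.0 per Mb inward and 256.5 beyond 5 Mb. In windows under 38% GC, it was 86.7 ± 9.19 at the end, 134.7 ± 17.6 inward and 135.2 ± 26.3 beyond 5 Mb (SD, n = 3). In the high GC stratum H3K36me2 without UV was 134.7 ± 27.9 per Mb at the end, 141.0 ± 28.3 inward and 176.9 ± 21.6 beyond 5 Mb (SD, n = 2). List by list, terminal and inward densities there were 114.9 and 121.0 in replicate 1 and 154.4 and 161.1 in replicate 2 without UV. At 3 h they were 56.7 and 64.8 in replicate 1 and 62.4 and 69.6 in replicate 2, so that the end was lower in 4 of 4 lists. In the low GC stratum it was 67.4 ± 5.63 per Mb at the end, 112.7 ± 2.96 inward and 155.3 ± 6.85 beyond 5 Mb. Weighting the inward density to the GC content of the terminal windows left a log2 ratio of −0.67 for H3K36me2 and −0.18 for the CTD.

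The gap between terminal and inward density differed inside and outside genes. The terminal megabases held 637 protein-coding genes, or 17.1 per Mb, and 9.85 pseudogenes per Mb, compared to 11.1 and 3.85 per Mb inward. Within gene bodies, H3K36me2 density without UV was 109 ± 15.7 per Mb at the end and 140 ± 12.6 inward. Outside genes and promoters it was 92.6 ± 6.46 and 164 ± 5.84 per Mb, so the gap was wider in the sequence between genes. The CTD showed equal densities in gene bodies, with 215 ± 28.6 and 213 ± 28.4 per Mb, and a lower density between genes, with 145 ± 15.2 and 195 ± 22.3 per Mb. Promoters, taken as 1 kb to each side of a start site, carried 96.1 ± 14.0 H3K36me2 peaks per Mb at the end and 112.6 ± 10.4 inward. For the CTD these densities were 235 ± 43.1 and 257.5 ± 36.8 per Mb. These are means ± SD over the lists without UV, and no test was run on them. Windows without a peak in any list were included, and their part in these gaps was not tested.

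H3K36me2 peaks at the ends were fewer after UV. The terminal density was 93.2 and 109.5 per Mb without UV and 64.8 and 67.8 per Mb at 3 h, so that both 3 h lists were below both untreated lists. The log2 difference was −0.61 (two-sided exact permutation p = 0.33, the smallest that 2 against 2 lists allow). Inward density went from a mean of 150.4 to 118.3 per Mb, and the sequence beyond 5 Mb from 181.5 to 183.9 per Mb. The log2 ratio of terminal to inward density was lower by 0.26 at 3 h with the same exact p of 0.33. For the CTD the terminal density differed by 0.034 on the log2 scale with overlapping lists (exact permutation p = 0.9, the smallest possible being 0.1), and the ratio of terminal to inward density by −0.0013 (exact permutation p = 1). The CTD density difference rested on single lists and became −0.057 without the third untreated replicate and −0.07 without the third 3 h replicate. The CTD peaks were called against a pooled empty-vector control at 3 h and against each replicate's own without UV. The part of this in any CTD comparison of 3 h with no UV was not tested.

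By arm, every 3 h list was below every untreated H3K36me2 list on 30 ends and above on 1. The same held for 30.7% and 35.7% of all windows. In the limma fit over all windows no terminal window was called for H3K36me2, with a lowest adjusted p of 0.0603. At an unadjusted p under 0.05, 28 of 39 terminal windows were lower and none higher, whereas 20.4% of all windows were lower. The 8q end went from a mean of 113 to 33.5 peaks per Mb and 12q from 61.6 to 18.7 per Mb. The end above in both 3 h lists was 3p, with 160.6 and 155.6 peaks per Mb without UV and 167.7 and 182.8 at 3 h. For the CTD, 0 of 39 ends separated in either direction beside 1.17% and 1.64% of all windows, and 0 passed limma at an adjusted or an unadjusted p of 0.05, the latter beside 0.804% of all windows.

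The UV difference of H3K36me2 followed GC content. Across the 39 terminal windows the Spearman correlation between GC content and log2 change was −0.87, and across the 2698 other windows it was −0.84. The 15 terminal windows with 50% GC or more had a median log2 change of −1.18, and 98 other windows in that bin had −0.78. The 15 windows from 45% to 50% GC had −0.66 against −0.39 in 356 other windows. The 7 windows from 40% to 45% GC had −0.04 against −0.05 in 929 other windows, and the 2 below 40% had 0.10 against 0.14 in 1315. Terminal windows were thus near other windows of the same GC bin up to 45% GC and lower above it. That difference was not tested, and GC content was not matched within the bins. The adjacent inward sequence also fell at high GC content. In 10 kb windows of 54% GC or more, mean density went from 134.7 to 59.6 per Mb at the end. It went from 141.0 to 67.2 per Mb inward and from 176.9 to 103.8 per Mb beyond 5 Mb. The part of GC content in the UV difference was not tested. For the CTD the same correlation was 0.19 over the terminal windows and 0.52 over the others.

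**Figure D3:**
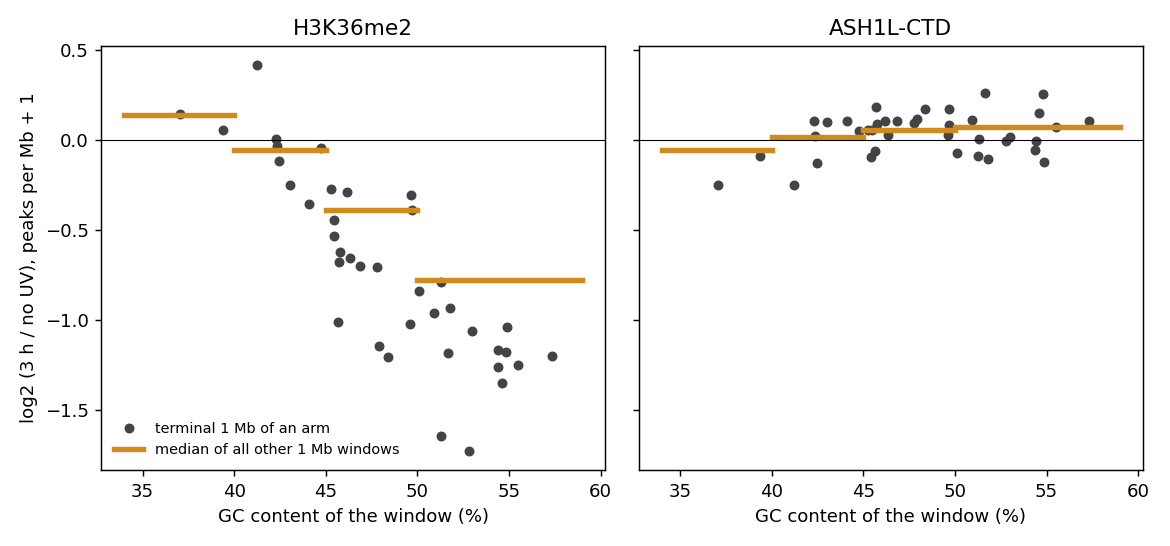
Log2 change in peak density at 3 h against no UV in each of the 39 terminal 1 Mb windows (points), by GC content in percent, with the median of all other autosomal windows in bins of GC content, for H3K36me2 and the CTD. The H3K36me2 change was more negative at higher GC content, down to a median of −1.18 in the 15 terminal windows of 50% GC or more, and the CTD change stayed near 0.

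Merging the peaks that replicates shared gave a count of sites in each condition. A site was a merged set of overlapping peaks found in both H3K36me2 replicates or in at least 2 of 3 CTD replicates. The ends held 2005 H3K36me2 sites without UV, or 53.8 per Mb, and 1238 at 3 h, or 33.2 per Mb. Of the untreated sites, 58.0% overlapped no site at 3 h, compared to 45.7% inward and 33.3% beyond 5 Mb. Of the 3 h sites, 25.7% overlapped no untreated site, compared to 25% and 32.5%. The CTD had 4561 terminal sites without UV and 5004 at 3 h, of which 49.0% and 52.3% were found in that condition alone, compared to 51.2% and 54.2% inward. These shares depended on the definition: counting any peak of the other condition as overlap lowered them to 30.7% and 8.80% for H3K36me2 and to 16.9% and 16.6% for the CTD. By that definition the inward shares were 21.53% and 8.39% for H3K36me2 and 17.897% and 18.002% for the CTD. Beyond 5 Mb they were 11.98% and 11.35% for H3K36me2 and 22.95% and 21.92% for the CTD.

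At the base-pair level, 1019 terminal stretches on 38 arms lay under a peak in all 4 H3K36me2 lists, or 27.3 per Mb, compared to 57.6 per Mb inward. A further 795 stretches of 100 bp or more were covered in both untreated lists and free of peaks at 3 h, and 142 showed the reverse. That is 21.3 and 3.81 per Mb beside 25.9 and 7.62 per Mb inward, so stretches of the untreated lists outnumbered the others inward as well. For the CTD only 30 stretches on 20 arms lay under a peak in all 6 lists, 170 were covered only without UV and 260 only at 3 h. Their rates of 0.805, 4.56 and 6.98 per Mb stood beside 0.694, 5.31 and 7.18 per Mb inward. At 3 h the CTD peaks had been called against a pooled empty-vector control and without UV against each replicate's own, and the part of this difference in the stretches of a single condition was not tested.

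Protein-coding genes at the ends showed the same contrast. Among 16551 autosomal genes of 5 kb or more, 526 had their midpoint in a terminal megabase, and the measure was the percentage of the gene body covered by peaks. Median H3K36me2 coverage of the terminal genes was 4.89% without UV and 0.955% at 3 h, compared to 7.32% and 1.60% inward and 8.14% and 4.61% beyond 5 Mb. The number of terminal genes without any H3K36me2 peak was 98 (18.6%) without UV and 203 (38.6%) at 3 h, compared to 14.6% and 33.2% of inward genes and 14.8% and 22.2% of genes beyond 5 Mb. Median CTD coverage was 15.8% and 17.4%, close to the 16.5% and 18.2% of inward genes.

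The limma fit over all genes, on log2(percent covered + 1), called 15 of 526 terminal genes lower for H3K36me2 at 3 h and none higher, that is 2.85% beside 2.13% and 0.115% of all genes. At an unadjusted p under 0.05, 152 were lower and 5 higher, together 29.8% beside 22.4% of all genes, and the median log2 change was −1.03 beside −0.31. With 2 lists per condition these calls were fragile: without either 3 h list none of the 15 remained and no terminal gene was called, whereas without untreated replicate 1 the fit called 124 lower, of 1791 among all genes, and without untreated replicate 2 it called 84, of 1333 among all genes.

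Fewer terminal genes than these 15 were called lower with a pseudocount of 10, or with only peaks scoring 2 or higher for −log10 p. In 13 of the 15 genes both 3 h lists were listed at 0, so the size of their log2 change depends on the pseudocount. PNPLA2, the gene of adipose triglyceride lipase on 11p, had 22.9% and 20.1% without UV (log2 −4.49 ± 0.0807 SE, limma adjusted p = 0.0137). CDC34, a ubiquitin-conjugating enzyme gene on 19p, had 9.49% and 9.47% (adjusted p = 0.00618), and EEF1A2, a translation elongation factor gene on 20q, had 10.7% and 11% (adjusted p = 0.00618). The remaining 10 genes at 0 were SYCE1 and NLRP6 on chromosomes 10 and 11, CYBC1 on 17q, ZNF497 on 19q, STMN3 and OPRL1 on 20q, CHKB-CPT1B and MAPK8IP2 on 22q, and SLC39A4 and KIFC2 on 8q, with untreated means from 1.08% in OPRL1 to 24.6% in CYBC1. CHKB-CPT1B is a read-through gene that overlaps its parent genes, so their values are not independent. PARD6G, a cell polarity gene on 18q, went from 24.1% and 24.9% to 8.23% and 8.34% (log2 −1.46 ± 0.0303, adjusted p = 0.0154). ALG12, a mannosyltransferase gene on 22q, went from 14.8% and 17.1% to 3.12% and 3.33% (log2 −2.0 ± 0.0938, adjusted p = 0.0403), but its change reversed to 1.06 when only peaks scoring 2 or higher for −log10 p were kept. The CTD covered the same 15 genes at untreated means of 13.6% to 29.5%, and none of them, nor any other terminal gene, passed the limma test for the CTD, where 16 had an unadjusted p under 0.05 (3.04%, beside 3.79% of all genes).

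The genes with the highest untreated H3K36me2 coverage were OR2V1, an olfactory receptor gene on 5q, with 69.4% and 79.5% and still 68.0% and 63.1% at 3 h, and TCEA2, a transcription elongation factor gene on 20q, with 58.1% and 72.7% and then 28.7% and 38.4%. PDCD1, which encodes the immune checkpoint receptor PD-1 on 2q, had 55.5% and 70.8% and then 24.0% and 18.6%. PAOX, a polyamine oxidase gene on 10q, had means of 61.1% and 26.5%, and ARRDC1 on 9q had 60.5% and 17.7%. These 5 were chosen as the highest without UV, so a lower value at 3 h is favoured by the choice and nothing is read from it; none passed the limma test (adjusted p from 0.0812 for PAOX to 0.464 for OR2V1). Of the 98 genes without a peak in the untreated lists the longest were LARP4B, NCAPD3 and NCAPG2 (the last 2 encoding condensin II subunits), POLE and WASHC1. The highest CTD coverage was in MAPK11, ARFRP1 and ADCK5, with means of 37.7%, 37.3% and 36.8% and SDs of 21.2, 11.9 and 22.5 points over 3 lists, a spread too wide to rank them.

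Of 10 chromatin and DNA repair genes known to lie near chromosome ends, 9 fell within the terminal megabase, RNF168 lying 1.81 Mb from the end. None of the 9 was called for UV in either experiment, beside 2.24% of all genes for H3K36me2 and 0% for the CTD. Their median H3K36me2 change was −0.26 on the log2 scale, beside −1.03 over the 526 terminal genes and −0.31 over all genes. Their median untreated coverage was only 0.382%, so most of them could hardly fall on this measure and nothing is read from the comparison. EHMT1, the H3K9 methyltransferase gene on 9q, had 12.0% and 15.0% without UV and 4.52% and 5.35% at 3 h (limma adjusted p = 0.103). RTEL1, which encodes a helicase that unwinds telomere loops, had 4.02% and 7.65% and then 1.67% and 2.34%. SIRT3, a mitochondrial deacetylase gene, had 4.72% and 5.75% and then 5.06% and 2.60%, with overlapping conditions. BRD9, of a SWI/SNF complex, PRMT2, an arginine methyltransferase gene at the very end of 21q, and POLE, the catalytic subunit of polymerase epsilon, were at or near 0 in all 4 H3K36me2 lists, as were ZMYND11 and FANCA at under 1%. KDM5A, an H3K4 demethylase gene, had means of 1.19% and 0.923%. The CTD covered BRD9 at 20.8%, FANCA at 14.0% and POLE at 23.8% without UV, whereas ZMYND11 had a CTD mean of 0.0712%.

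The alpha-globin region on 16p had little H3K36me2. NPRL3, whose introns hold the globin enhancers, had 0.46% and 4.92% without UV and 1.54% and 0% at 3 h, HBZ had a peak in a single 3 h list, and HBM had none. CTD coverage of NPRL3 was 16.9%, 17.3% and 17.3% without UV and 23.1%, 15.1% and 22.5% at 3 h. HBA1, HBA2 and HBQ1 are under 5 kb and were not tested. HBA2 had no peak in any list, and HBA1 and HBA2 are near-identical copies.

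The genes of duplicated terminal blocks gave almost no signal. OR4F5 on 1p, OR4F17 on 19p, TUBB8 on 10p, WASHC1 on 9p and DUX4 in the D4Z4 repeats of 4q were at 0 in all 10 lists, and FRG1 had CTD means of 0.254% and 2.43%. FRG2, under 5 kb, was at 0 as well. These genes have closely related copies elsewhere in the genome, and reads of low mapping quality had been removed, so these zeros cannot be told apart from missing reads.

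Among neural genes at the ends, SHANK3, a synaptic scaffold gene on 22q, had 15.8% and 20.7% H3K36me2 coverage without UV and 4.10% and 1.90% at 3 h (limma adjusted p = 0.135). CHL1, a cell adhesion gene on 3p, went the other way, from 10.5% and 10.8% to 13.7% and 13.0% (adjusted p = 0.103). MYT1 had means of 4.25% and 1.54%. OPRL1, the nociceptin receptor gene, was the only one of the 4 tested members called, from 1.14% and 1.02% to 0 in both lists (log2 −1.06 ± 0.0415, adjusted p = 0.0341), beside 2.13% of all genes and 2.85% of terminal genes called lower, and DRD4 was too short to be tested.

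None of 5 genes described as responding to telomere length on the same arm fell in the terminal megabase. ISG15 lies 1.01 Mb from the end, TERT, the telomerase catalytic subunit gene, 1.27 Mb, SORBS2 4.44 Mb, C1S 7.03 Mb and DSP 7.56 Mb. TERT had no H3K36me2 peak in any list and a CTD mean of 23.8% without UV.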

How the data were processed

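ChIP-seq broad peak lists of U2OS cells were used, 4 for H3K36me2 and 6 for the CTD. The authors trimmed reads (Trim Galore 0.6.5), aligned with BWA 0.7.17-r1188 to an hg38 reference from which chromosome Y was left out, removed mapping quality under 30, duplicates and blacklisted regions (SAMtools 1.7, Picard, bedtools 2.29.2) and called broad peaks per replicate (MACS2 2.2.7.1, p-value cutoff of 0.01 in the methods) against input pooled over duplicates for H3K36me2 or empty-vector ChIP for the CTD. H3K36me2 single-end and paired-end runs of a replicate were pooled before calling. The deposited values are a fold enrichment (ratio of ChIP to control) and −log10 p and −log10 q values per peak, as the authors' caller wrote them. Each list stops at 500000 peaks, so p-values above the cutoff are included.

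Peaks were assigned by centre and counted per ungapped Mb in Python 3.11.15 (numpy 2.4.6, pandas 2.3.3, scipy 1.17.1). Figures used matplotlib 3.10.9. Genes, exons and introns followed the GENCODE annotation of hg38. Lists were the replicates: two-sided exact sign-flip and permutation tests compared zones and conditions, and limma 3.58.1 (R 4.3.3) compared 2737 windows of 1 Mb, on log2(density + 1), and 16551 genes, on log2(percent covered + 1), with Benjamini-Hochberg adjustment and a threshold of 0.05. The fits were tested on simulated data. Windows needed 0.5 Mb of ungapped sequence. Named arms are the 3 highest and 3 lowest by mean ratio in each experiment, named stretches the 3 highest of each kind by the lowest fold enrichment over lists, and named genes the 5 highest and 5 lowest for H3K36me2 (genes tied at 0 ranked by length, longest first) and the 3 highest for the CTD without UV, every terminal gene called for UV, and all members of the 5 gene lists. Some sequences and the results that rest on them are not reported here. Other arms, stretches or genes named were picked after their values were seen. The regions, gene lists and tests were chosen with earlier results of these data known. Alternatives covered peak filters, zone widths, pseudocounts, site overlap, GC weighting, single lists left out and the replicate block. The inputs and empty-vector libraries entered only through the authors' calls.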

Additional observations from a re-analysis of the deposited data

Results flagged for a closer look

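The log2 ratio of terminal to inward density was higher by 0.55 for the CTD than for H3K36me2. It was singled out because a direct test between the experiments at the same position along the chromosome passed 0.05 before adjustment. The two-sided exact permutation p was 0.00476 over 6 against 4 lists. After adjustment over 15 tests it was 0.0714, which is above 0.05. All 6 CTD lists were above all 4 H3K36me2 lists. Genotype, antibody and control differ between the experiments and cannot be told apart. Peak strength differs too. Only 29323 to 42078 peaks of each CTD list reached a −log10 p of 2, compared to 204043 to 224811 of each H3K36me2 list. Groups of 2 or 3 lists were too small to look for single outlying lists.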

How the results depend on the processing

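The H3K36me2 ratio of terminal to inward density kept its sign under 15 other settings (−1.16 to −0.57), and the CTD excess over H3K36me2 under 14 (0.49 to 1.40). A −log10 q filter of 1.3 left no inward CTD peaks in any list and gave no CTD ratio. The terminal CTD density under that filter was 0 or 0.0268 per Mb, depending on the list. The CTD ratio turned to 0.39 with peaks of −log10 p of 3 or more, where few peaks are left, and to 0.071 against sequence beyond 5 Mb, and its unadjusted p, the one under 0.05 in the main analysis, was above 0.05 at −0.0017 with the outer 2 Mb and at −0.023 in 10 kb windows with a peak in any list. Without single lists it was −0.159 to −0.149, again above that threshold, since 5 lists cannot give an exact p under 0.0625. The CTD difference in this ratio between 3 h and no UV, near 0, changed sign to 0.0144 with peaks shared between replicates, 0.0317 with 50% overlap, 0.0205 and 0.273 at a −log10 p of 2 and 3, 0.00779 and 0.0016 with the outer 0.5 and 2 Mb, 0.0369 against sequence beyond 5 Mb, 0.0274 as a median over arms, and −0.0155 to 0.00881 without single lists. The terminal CTD density difference ranged from −0.0700 to 0.123 without single lists. With the outer 0.5 Mb, the CTD width difference was −0.023, its fold difference 0.0038 (exact p = 0.031) and its recurrence difference 0.378 points, with an unadjusted p above 0.05; without single lists the last was 1.19 to 1.64.

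Terminal windows higher than inward numbered 1 for H3K36me2 with windows of 0.9 Mb or more (933 among all windows), and 7 for the CTD with shared peaks (1016). CTD windows lower than inward numbered 8 at a −log10 p of 2 (405). For UV, shared peaks gave 1 higher and 30 lower H3K36me2 windows (1033 and 874 among all 2737 windows) and 5 higher CTD windows (219). That filter keeps peaks that replicates share, which by construction narrows the spread within a condition. H3K36me2 genes higher at 3 h numbered 2 with a pseudocount of 0.1 (42 among all genes), 6 with shared peaks (406), 2 at a −log10 p of 2 (23), 1 among genes with 1% or more covered (10), and 0 to 1 without single lists. Genes lower numbered 32 and 5 with pseudocounts of 0.1 and 10 (638 and 183 among all genes), 121 with shared peaks (2840), 2 at a −log10 p of 2 (206), 26 among genes with 1% or more covered (376), and 0 to 124 without single lists (up to 1791), where the lone list of a condition is assumed to vary like the others. CTD genes numbered 7 higher and 2 lower with shared peaks (311 and 114 among all genes) and 1 and 1 at a −log10 p of 2 (11 and 6). ALG12 became 1.06 and the CTD window of 21q −0.0714 at a −log10 p of 2. The share of terminal sites in a single condition was 67.3% (H3K36me2 without UV), 31.3% (3 h), 68.6% (CTD without UV) and 71.1% (3 h) with 50% overlap, 30.7%, 8.80%, 16.9% and 16.6% against every peak, and 60.6%, 35.0%, 87.0% and 94.5% at a −log10 p of 2. In the same order, the inward shares were 56.17%, 30.98%, 70.01% and 72.58% with 50% overlap. They were 21.53%, 8.39%, 17.897% and 18.002% against every peak, and 51.66%, 33.99%, 99.18% and 99.28% at a −log10 p of 2. The cause of these differences was not tested.

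With the replicate block the number of H3K36me2 genes lower at 3 h was 0, and the density difference kept its value of −0.61. Same-numbered lists did not deviate together (correlations from −0.50 to 0.081). So few lists cannot show whether the numbers pair the samples. With no read depths, the precision of a single list is unknown.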
